A study of Rattus norvegicus with 6 samples.

Results

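Growth factor receptor kinases other than the PDGF receptors were examined in cultured rat oligodendrocyte precursor cells (OPCs), the dividing glial cells that give rise to oligodendrocytes. The members were the 10 genes Fgfr1, Fgfr2, Fgfr3, Egfr, Erbb2, Erbb3, Erbb4, Igf1r, Insr and Met, taken by gene name from the 32883 genes of the authors' table. All 10 were found, and all 10 passed the filter on low counts that left 14670 genes for testing. The rule used gene names alone. With ZJU-37, Fgfr1 mRNA rose 1.28-fold with little spread and Fgfr2 mRNA fell 1.73-fold. Igf1r, Insr and Erbb2 had the smallest fitted changes of the 10 receptors.

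The cells came from cerebral cortices of newborn Sprague Dawley rats, with tissue of 2 animals pooled for a culture, and were shaken off mixed glia and kept in Neurobasal with B27 and N2. The medium described in the labels lists no growth factor added apart from these supplements. The study does not list what B27 and N2 contain, so ligands in them are not excluded. Libraries of poly-A RNA were made from cells given 5 µM ZJU-37, a small-molecule inhibitor of the kinase RIPK1, or the same volume of its solvent DMSO. Each group had 3 libraries, and the labels give 36 h of treatment, whereas the study's methods give a shorter time. The study asked how ZJU-37 changes the transcription of OPCs. The study calls the libraries of a group biological repeats in one place and wells of a plate in another, so p-values measure the spread between these libraries, which may be technical.

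A receptor tyrosine kinase binds its ligand outside the cell, pairs with another receptor and phosphorylates itself and adaptor proteins inside. The signal then runs through RAS to the kinase ERK and through PI3K to AKT and mTOR. FGF receptors and PDGF receptors carry the mitogenic signals of cultured OPCs. ERBB receptors answer EGF-like ligands and neuregulins, and the insulin and IGF-1 receptors support survival and growth of the lineage. Met binds hepatocyte growth factor (HGF), which acts on OPC migration and proliferation.

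Library totals ran from 13935865 to 24097927 counts, so that 3 counts corresponded to between 0.124 and 0.215 CPM, which is the count of a gene scaled to a fixed library total, a limit set by counting error alone. The smallest member count was 90, for Erbb2 in DMSO replicate 1. CPM values were scaled with TMM factors, which correct for library composition, and they compare a gene between libraries. The values of a group are listed in the order of its replicates 1, 2 and 3. FPKM values divide by gene length as well and compare genes with each other. A call means an adjusted p-value under 0.05 in edgeR's quasi-likelihood test over all 14670 genes. Same-numbered libraries of the 2 groups deviated together, so a fit with the replicate number as a block is given where it changes a call. Of the 10 receptors, 1 was called higher and 1 lower, against 9.43% of all tested genes called higher and 5.58% called lower. With the replicate block 3 receptors were called higher and 3 lower, against 16.2% and 15.9% of all tested genes. The libraries of the 2 groups did not overlap for 2 of the 10 receptors, against 35.2% of all tested genes. In the 2-group fit the receptors as a list were thus not set apart from other genes by how many of them changed. With the block the called share was larger among the 10 receptors than among all tested genes, a difference that was not tested.

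Fgfr1 was the most abundant of the 10 receptors per length and had the smallest standard error. The authors' table, for which the sources used here give no genome build, places it on the minus strand of chromosome 16 (start 71266248, end 71319449). It encodes the FGF receptor that binds FGF2, the mitogen commonly given to OPC cultures. DMSO libraries gave 185, 188 and 181 CPM, and ZJU-37 libraries 226, 244 and 238 CPM. All 3 ZJU-37 libraries were above all 3 DMSO libraries. On average 185 ± 3.53 CPM were measured with DMSO and 236 ± 8.90 CPM with ZJU-37 (SD, n = 3 libraries each). The log2 fold change was 0.35 (standard error 0.06, 95% interval 0.21 to 0.49, adjusted p = 0.00842, edgeR). Pair by pair, the rise was 0.29, 0.37 and 0.40 on the log2 scale. A two-sided exact permutation test over the 6 libraries gave p = 0.1, the smallest p that 3 libraries against 3 can give. As large an absolute fold change was seen in 27.9% of all tested genes, while 6.62% had as small a p-value. A small nucleolar RNA gene on the other strand lies in the same span, with 59 counts in all against 24258 for Fgfr1.

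Fgfr2 fell more than any other receptor of the 10. The gene is on the minus strand of chromosome 1 (start 200590953, end 200696928). Its product is made by differentiating oligodendrocytes more than by early progenitors and, with Fgfr1, acts on myelin growth. DMSO libraries gave 129, 85.1 and 89.8 CPM, and ZJU-37 libraries 59.0, 62.3 and 53.6 CPM. DMSO replicate 1 stood above the other DMSO libraries, and the lowest DMSO library was still above the highest ZJU-37 library. The mean went from 101 ± 23.9 to 58.3 ± 4.42 CPM (SD, n = 3 libraries each). The log2 fold change was -0.79 (standard error 0.17, 95% interval -1.19 to -0.40, adjusted p = 0.0225, edgeR). Pair by pair, the log2 difference was -1.12, -0.45 and -0.74. The call was lost without ZJU-37 replicate 1, 2 or 3 (adjusted p = 0.0526, 0.0527 and 0.0805, edgeR), while the log2 fold change stayed between -0.90 and -0.59 over all 6 leave-one-out fits. The exact permutation test gave p = 0.1 here too.

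Fgfr3 was lower in every pair but not past the threshold in the 2-group fit. It is on the minus strand of chromosome 14 (start 82273070, end 82287706) and encodes an FGF receptor of OPCs and astrocytes. DMSO libraries gave 80.1, 60.6 and 80.2 CPM, and ZJU-37 libraries 68.8, 49.7 and 62.9 CPM. The groups overlapped, because replicate 2 was the lowest library of both groups. The log2 fold change was -0.28 (95% interval -0.66 to 0.09, adjusted p = 0.303, edgeR). With the replicate block it was -0.29 (95% interval -0.42 to -0.16, adjusted p = 0.00436, edgeR). The pairs differed by -0.22, -0.29 and -0.35 on the log2 scale.

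Both FGF receptors that had lower values have a RefSeq promoter entry in assembly GRCr8, and 8 of the 10 receptors do. Fgfr1 and Erbb3 were not matched. The 250 bases before the annotated start are shown for Fgfr2 (chr1:194280915-194281164, minus strand) and Fgfr3 (chr14:81227210-81227459, minus strand), because these are the FGF receptor genes with lower values. They are written 5′ to 3′ on the strand of the gene, with each GC box, the letters GGGCGG or their reverse complement CCGCCC, in capitals.
Fgfr2: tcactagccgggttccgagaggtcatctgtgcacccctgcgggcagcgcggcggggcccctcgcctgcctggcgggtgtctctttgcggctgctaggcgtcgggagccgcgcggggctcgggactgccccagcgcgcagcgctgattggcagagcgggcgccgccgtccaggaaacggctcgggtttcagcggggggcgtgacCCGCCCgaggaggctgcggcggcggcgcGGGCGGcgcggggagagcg
Fgfr3: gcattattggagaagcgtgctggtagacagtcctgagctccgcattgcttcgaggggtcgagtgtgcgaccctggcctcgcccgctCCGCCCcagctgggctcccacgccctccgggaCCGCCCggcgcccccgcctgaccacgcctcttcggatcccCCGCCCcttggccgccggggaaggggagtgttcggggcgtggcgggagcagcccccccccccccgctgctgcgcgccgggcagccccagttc
The Fgfr2 window holds 2 GC boxes and the Fgfr3 window 3, and 30.5% of the 33469 promoter entries hold at least 1. The letters TATAAA, searched on both strands, are in neither window and in 12.9% of all entries. The GC content is 76.8% for Fgfr2 and 74.4% for Fgfr3, against a median of 51.2% over all entries. These windows come from another annotation than the counts, and no measurement here shows which start was used in the cells. Counts are per gene, so splice forms of a receptor, which set its ligand preference in the FGF family, were not separated.

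**Figure D1:**
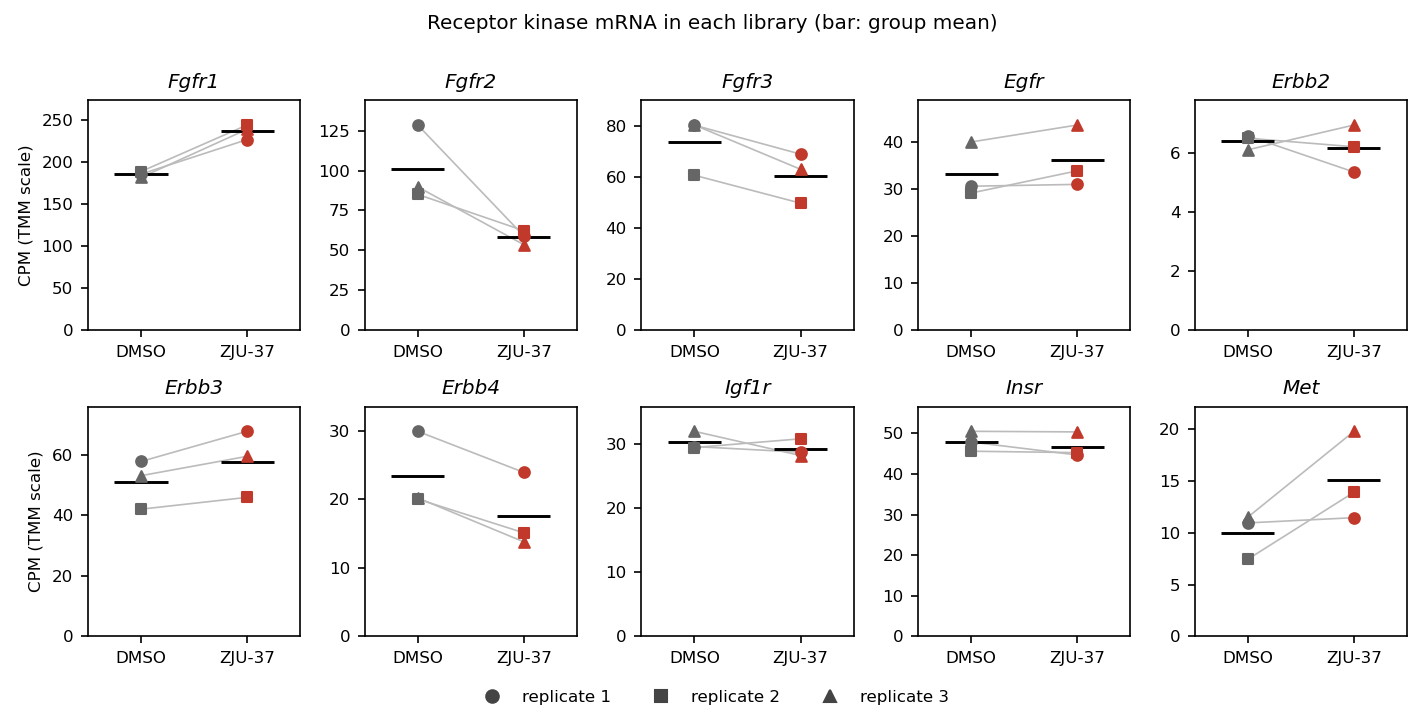
Level of each receptor kinase in each library, in CPM on the TMM scale from 0 upwards, for DMSO (grey) and ZJU-37 (red). Symbols mark replicate numbers, thin lines join libraries of the same number and black bars are group means. Fgfr1 rises from 181 to 188 CPM with DMSO to between 226 and 244 CPM, Fgfr2 falls in all 3 pairs, and the values of Igf1r and Insr overlap between groups.

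The ERBB receptors had fold changes of both signs, and none of the 4 was called in the 2-group fit. Erbb3, which binds neuregulins but has a weak kinase and signals through a partner receptor, had the highest mean FPKM of the family, in a range that overlapped that of Egfr. The gene is on the minus strand of chromosome 7 (start 2989340, end 3010350). DMSO libraries gave 57.8, 42.0 and 53.1 CPM, and ZJU-37 libraries 67.7, 45.9 and 59.5 CPM. Each ZJU-37 library was above the DMSO library of its own number, by 0.23, 0.13 and 0.16 on the log2 scale, and replicate 2 was lowest in both groups. The log2 fold change was 0.18 (95% interval -0.24 to 0.60, adjusted p = 0.567, edgeR). With the replicate block it was 0.17 (95% interval 0.04 to 0.31, adjusted p = 0.0476, edgeR), just under the threshold.

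Erbb4, a neuregulin receptor with a full kinase, had lower values with ZJU-37. The gene is on the minus strand of chromosome 9 (start 75021790, end 75528644). DMSO libraries gave 29.95, 20.1 and 20.2 CPM, and ZJU-37 libraries 23.95, 15.1 and 13.8 CPM. Replicate 1 was the highest library of each group, and ZJU-37 replicate 1 lay within the DMSO range. The log2 fold change was -0.41 (95% interval -1.03 to 0.22, adjusted p = 0.371, edgeR). It was -0.43 with the replicate block (95% interval -0.63 to -0.22, adjusted p = 0.00581, edgeR), and the pairs differed by -0.32, -0.40 and -0.55.

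Egfr, the receptor of EGF and TGF-alpha, had 30.5, 29.1 and 39.9 CPM with DMSO and 30.9, 33.8 and 43.5 CPM with ZJU-37. Its gene is on the plus strand of chromosome 14 (start 99919485, end 100098796). Replicate 3 was the highest library of both groups, and the groups overlapped. Its log2 fold change was 0.12 (95% interval -0.29 to 0.53, adjusted p = 0.703, edgeR) and was not past the threshold with the block either. Erbb2, the shared partner receptor that binds no ligand itself, was the lowest of the 10 per length. Its gene is on the plus strand of chromosome 10 (start 86367596, end 86391728). DMSO libraries gave 6.57, 6.50 and 6.11 CPM, and ZJU-37 libraries 5.35, 6.21 and 6.94 CPM, with the DMSO values inside the ZJU-37 range. Its log2 fold change was -0.05 (95% interval -0.41 to 0.32, adjusted p = 0.870, edgeR).

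Igf1r and Insr, which bind IGF-1 and insulin and pair with each other, had the narrowest intervals around 0. Igf1r is on the plus strand of chromosome 1 (start 128924966, end 129206516). It had 29.6, 29.4 and 32.0 CPM with DMSO and 28.7, 30.8 and 28.2 CPM with ZJU-37, and the groups overlapped. Its log2 fold change was -0.05 (95% interval -0.23 to 0.12, adjusted p = 0.697, edgeR). Insr is on the minus strand of chromosome 12 (start 1680957, end 1816414). It had 47.8, 45.6 and 50.5 CPM with DMSO and 44.7, 45.2 and 50.3 CPM with ZJU-37, and the groups overlapped. Its log2 fold change was -0.04 (95% interval -0.22 to 0.14, adjusted p = 0.798, edgeR). For both genes the interval left out a change as large as that fitted for Fgfr1, in either direction.

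Met had the largest fitted rise of the 10 and a wide spread. It is on the plus strand of chromosome 4 (start 44774741, end 44852665) and encodes the HGF receptor. DMSO libraries gave 10.96, 7.46 and 11.5 CPM, and ZJU-37 libraries 11.46, 13.9 and 19.8 CPM. ZJU-37 replicate 1 lay within the DMSO range and the others above it. The pair of replicate 1 differed by 0.06 on the log2 scale, and the other pairs by 0.89 and 0.78. The log2 fold change was 0.60 (95% interval -0.00395 to 1.20, adjusted p = 0.177, edgeR). With the replicate block it was 0.59 (95% interval 0.21 to 0.97, adjusted p = 0.0279, edgeR).

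**Figure D2:**
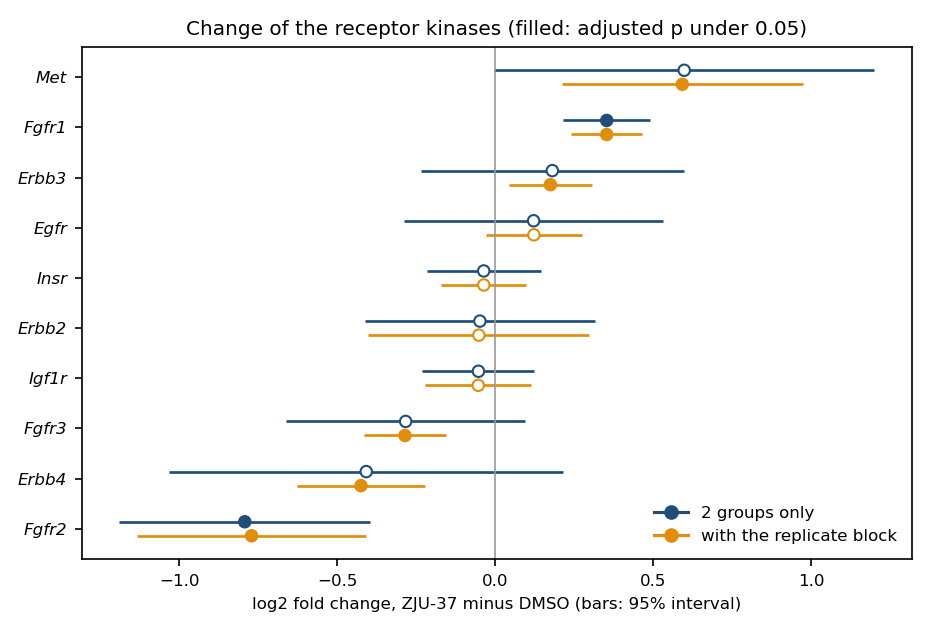
Log2 fold change of each receptor kinase (ZJU-37 minus DMSO, horizontal axis) with its 95% interval, from the 2-group fit (blue) and the fit with the replicate block (orange). Filled points have an adjusted p under 0.05: Fgfr1 and Fgfr2 in both fits, and Met, Erbb3, Fgfr3 and Erbb4 with the block.

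Per length, the FGF receptors were the most abundant of the 10 in both groups. With DMSO the mean FPKM of Fgfr1 was 54.3 ± 1.24, that of Fgfr2 21.1 ± 4.89 and that of Fgfr3 20.5 ± 3.05 (SD, n = 3 libraries each). The ranges of Fgfr2 and Fgfr3 overlapped there. The means then ran down over Erbb3 (8.54), Egfr (7.94), Igf1r (7.36), Insr (6.85) and Erbb4 (6.13) in FPKM, each of which overlapped the next in its range. Met (2.01 FPKM) lay below Erbb4 and Erbb2 (1.34 FPKM) below Met, with no overlap of libraries at either step. With ZJU-37 the order of the means changed in 1 place. Fgfr3, with 16.8 ± 2.86 FPKM, lay above Fgfr2, with 12.1 ± 0.952 FPKM (SD, n = 3 libraries each), and their ranges no longer overlapped. Fgfr2 then overlapped Erbb3, which had 9.67 ± 1.93 FPKM. Among the 13601 genes with a mean of at least 1 FPKM, Fgfr1 lay above 89.4% of genes and Erbb2 above 3.40%.

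The make-up of the FGF receptor mRNA differed between groups without overlap, whereas its summed level overlapped. The sum of Fgfr1, Fgfr2 and Fgfr3 was 103, 90.4 and 94.1 FPKM with DMSO and 98.9, 97.6 and 97.8 FPKM with ZJU-37 (exact permutation p = 0.7). Fgfr1 held 52.6%, 61.5% and 56.5% of this sum with DMSO and 67.9%, 72.7% and 71.0% with ZJU-37, with no overlap. The mean share was 13.7 percentage points higher with ZJU-37. The share of Fgfr2 went from 21.8% ± 3.53 to 12.4% ± 0.966 (SD, n = 3 libraries each), also with no overlap. The share of Fgfr3 went from 21.3% ± 2.47 to 17.1% ± 2.81, with overlap. Pair by pair, the share of Fgfr3 differed by -1.98, -4.69 and -5.94 percentage points. The ratio of Fgfr1 to Fgfr2 in FPKM was 2.03, 3.12 and 2.84 with DMSO and 5.40, 5.50 and 6.27 with ZJU-37. Over 8 shares compared, the two-sided exact permutation test gave p = 0.1 for Fgfr1 and for Fgfr2, the smallest it can give, and an adjusted p of 0.32, so that this design could not reach the threshold for a share.

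In the ERBB family the summed level was 20.7 to 26.1 FPKM with DMSO and 20.9 to 26.5 FPKM with ZJU-37, and replicate 2 was lowest in both groups. Erbb3 held 35.6% ± 1.39 of the sum with DMSO and 39.7% ± 3.46 with ZJU-37, and Erbb4 25.5% ± 4.38 and 19.0% ± 4.90 (SD, n = 3 libraries each). Both had an exact permutation p of 0.2 and an adjusted p of 0.32 in the test that ignores the pairing. Pair by pair, the share of Erbb3 differed by 6.48, 2.41 and 3.61 percentage points and that of Erbb4 by -5.94, -6.65 and -6.96 percentage points. The share of Egfr differed by 0.43, 4.66 and 2.75 percentage points. Each of these genes had 1 sign in all 3 pairs, and Erbb2 did not. Shares within a family are not independent of each other. Igf1r held 51.8% of the summed FPKM of Igf1r and Insr with DMSO and 51.5% with ZJU-37 (exact permutation p = 0.9).

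**Figure D3:**
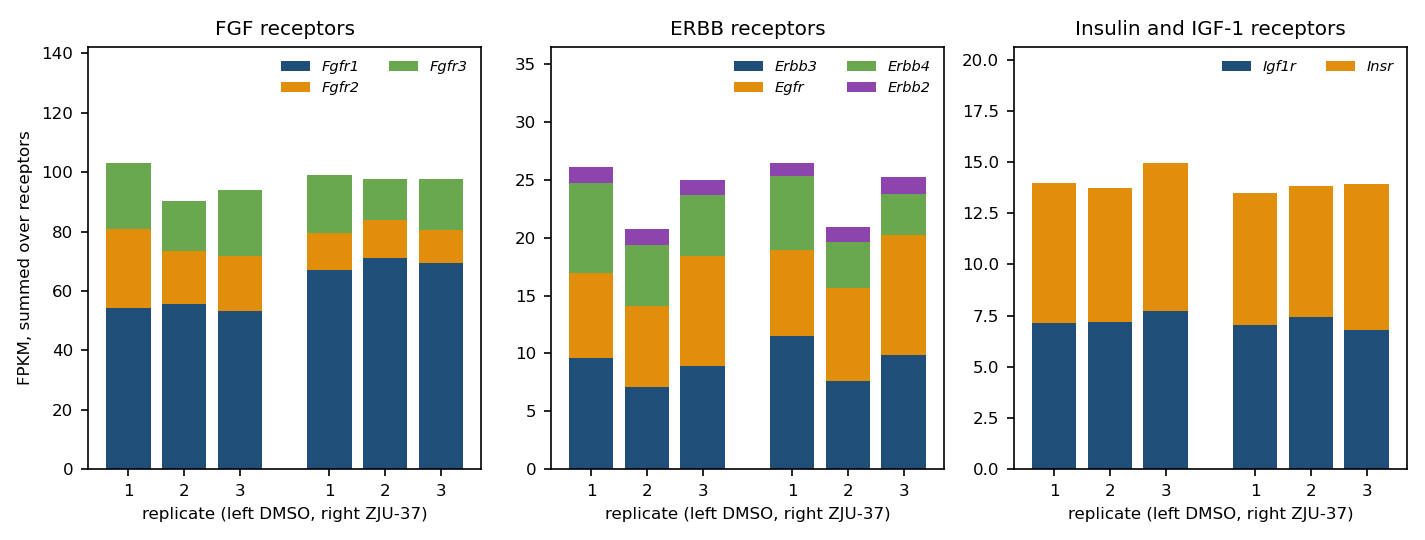
Stacked FPKM of the FGF receptors, the ERBB receptors and the insulin and IGF-1 receptors in each library, with DMSO replicates 1 to 3 on the left of each panel and ZJU-37 replicates 1 to 3 on the right. The FGF receptor sum lies between 90.4 and 103 FPKM in every library, with a larger Fgfr1 part and a smaller Fgfr2 part in the ZJU-37 libraries.

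Close relatives of the members were examined as well. Fgfrl1, an FGF receptor without a kinase domain, gave 133, 113 and 144 CPM with DMSO and 85.4, 66.7 and 97.96 CPM with ZJU-37, with no overlap. It fell by 0.64 on the log2 scale (adjusted p = 0.0403, edgeR). Igf2r, which clears IGF-2, had a log2 fold change of 0.13 (adjusted p = 0.307, edgeR). Fgfr4 had 22 counts and Mst1r 14 counts over all 6 libraries, and Insrr had 0, so these 3 were not tested.

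Levels of the ligand transcripts ranged widely. Of 17 FGF genes found in the table, 4 passed the filter, and 0 were called in edgeR or DESeq2. At an unadjusted p under 0.05 there was 1, Fgf9, which had 2.86 and 1.48 CPM as group means and was called lower with the block. Fgf2 had 4.53 and 3.82 CPM as group means with DMSO and ZJU-37. Of 8 tested ligands of the EGF and neuregulin type, 0 were called higher and 1 lower. With the block 2 were lower. The gene called in both fits was Tgfa, which encodes the Egfr ligand TGF-alpha and was the most abundant of these ligands. DMSO libraries gave 190.0, 167 and 159.8 CPM, and ZJU-37 libraries 128, 87.9 and 89.2 CPM. It fell by 0.76 on the log2 scale (adjusted p = 0.0230, edgeR). Hgf had 4.24 and 3.41 CPM as group means, and Igf1 had 6.98 and 6.58 CPM, neither called. Igf2 had 8.51 ± 0.354 CPM with DMSO and 2.10 ± 0.0971 CPM with ZJU-37 (SD, n = 3 libraries each) and fell by 2.01 on the log2 scale (adjusted p = 4.30e-04, edgeR). It was the one ligand called of 3 tested in the insulin, IGF and HGF group.

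Co-receptors and surface proteoglycans, which hold FGFs at the cell surface or sit beside the receptors, had 1 gene called higher and 2 lower of 15 tested, and 4 and 4 with the block. Sdc3, the syndecan of glia and neurons, had 223 ± 12.5 CPM with DMSO and 362 ± 27.2 CPM with ZJU-37 (SD, n = 3 libraries each) and rose by 0.70 on the log2 scale (adjusted p = 0.00191, edgeR). The tetraspanin gene Cd9 fell by 0.93 (adjusted p = 0.00159, edgeR) and Flrt1, whose product binds FGF receptors, fell by 1.36 on the log2 scale (adjusted p = 0.00492, edgeR). Of 16 tested genes that restrain these receptors, 2 were called higher and 0 lower, and 6 and 2 with the block. The former were Ubash3b, a phosphatase gene of the receptor turnover machinery (log2 fold change 0.73, adjusted p = 0.00362, edgeR), and Lrig3 (0.56, adjusted p = 0.0369, edgeR). The median log2 fold change was 0.11 for the co-receptors and 0.07 for the restraining genes, against -0.03 over all tested genes.

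Of 26 tested adaptor and PI3K genes, 3 were called higher and 3 lower, and 5 and 7 with the block. Shc4, an adaptor that links receptors to RAS, rose from 15.3, 15.5 and 16.8 CPM with DMSO to 43.9, 41.9 and 45.5 CPM with ZJU-37, by 1.46 on the log2 scale (adjusted p = 2.25e-04, edgeR). This was the largest called change among the adaptors. Shc3 rose by 0.92 and Nck2 by 0.73 on the log2 scale (adjusted p = 0.00540 and 0.0118, edgeR). Pik3r3, a regulatory subunit of PI3K, fell by 0.76 (adjusted p = 0.0105, edgeR). Irs1, a docking protein of the insulin and IGF-1 receptors, and Frs3, one of FGF receptors, were the other genes called lower. With DMSO they averaged 31.5 and 15.0 CPM, against 159 CPM for Irs2 and 65.8 CPM for Frs2, docking proteins of the same families. Irs2 and Frs2 had log2 fold changes of -0.48 and -0.14 and were not called (adjusted p = 0.141 and 0.367, edgeR). With the block Irs2 was called lower and Frs2 was not called.

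Below the adaptors, most kinases were not called. Of 14 RAS and ERK pathway genes, Mapk3, which encodes ERK1, was called lower (log2 fold change -0.55, adjusted p = 0.0124, edgeR). Of 14 AKT and mTOR pathway genes, Tsc2 was called higher (0.25, adjusted p = 0.0308, edgeR) and Rictor and Foxo3 lower (-0.64 and -0.27, adjusted p = 0.0418 and 0.0324, edgeR). With the block, 2 and 3 genes of these lists were called lower. The median log2 fold changes of these lists were -0.04 and -0.01. Genes known from other cells as FoxO targets, which insulin signalling represses, had 3 of 12 called lower (Bnip3, Sesn3 and Pik3ip1, with log2 fold changes of -0.73, -0.52 and -0.52, adjusted p = 0.0171, 0.0118 and 0.0103, edgeR) and 0 higher, and 5 lower with the block. Genes that ERK signalling induces as feedback had 9 of 15 called higher and 1, Dusp7, lower. Their median was 0.60, and Spry4 rose from 41.3 ± 3.21 CPM with DMSO to 125 ± 10.3 CPM with ZJU-37 (SD, n = 3 libraries each), with Spry1, Etv4 and Spry2 at log2 fold changes of 1.57, 1.28 and 0.98. Of 21 other receptor tyrosine kinases tested, a list without Eph receptors, 5 were called higher and 0 lower, namely Pdgfra, Ddr2, Ntrk3, Ror2 and Alk, and with the block 8 were higher and 4 lower. Alk was under 1 CPM in every library.

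**Figure D4:**
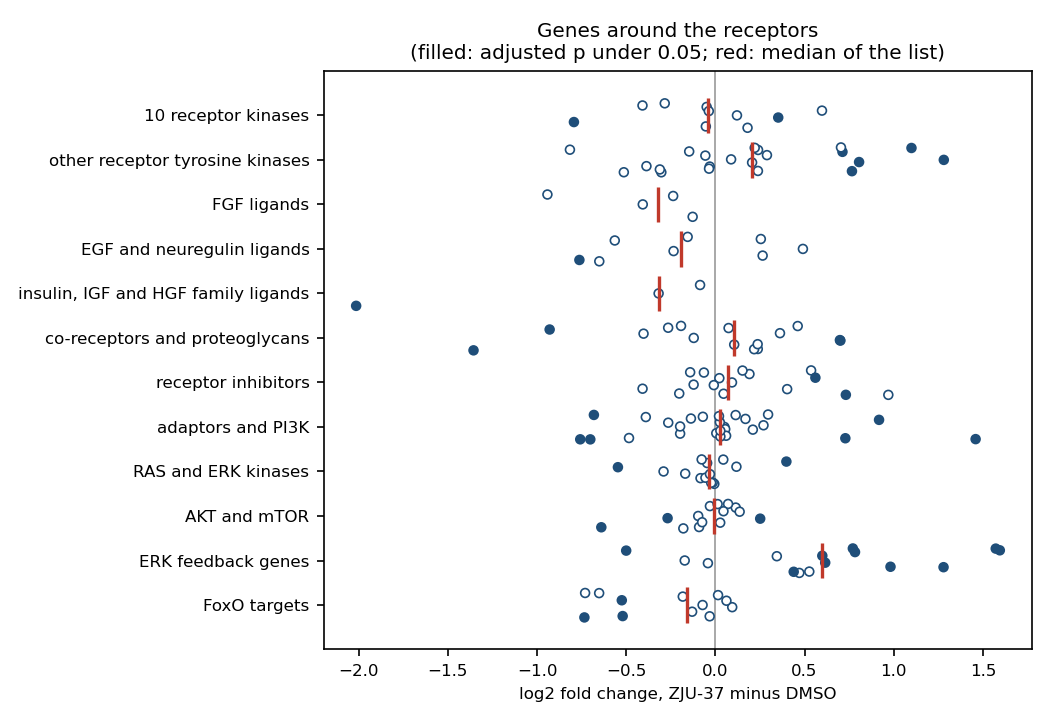
Log2 fold change (ZJU-37 minus DMSO, horizontal axis) of each tested gene of the receptor list and of 11 lists around it. Filled points have an adjusted p under 0.05 in the 2-group edgeR fit, red bars are list medians and vertical scatter only separates points. The median is -0.04 for the 10 receptors and 0.60 for the ERK feedback genes.

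The cultures held other cell types, whose markers were summed over each list. In a bulk sample, fewer cells of a type and less RNA per cell cannot be told apart. Of the 10 OPC markers found, 4 were called higher (Pdgfra, Cspg4, Olig1 and Ptprz1) and 5 lower (Gpr17, Matn4, Nkx2-2, Cnp and Sox10), of which Gpr17, Nkx2-2 and Cnp are known to rise as OPCs start to differentiate. Olig2 had between 438 and 554 CPM in the 6 libraries. The 12 oligodendrocyte markers summed to 19467, 13547 and 9137 CPM with DMSO and to 7567, 8929 and 3969 CPM with ZJU-37, with no overlap, and 1 of the 12, Myrf, was called lower (5 by DESeq2 and 6 with the block). DMSO replicate 1 was thus the highest library for this sum as it was for Fgfr2 and Erbb4. The part of differentiating cells in the lower Fgfr2 was not tested. The 12 astrocyte markers summed to between 1463 and 2219 CPM with DMSO and between 1518 and 2075 CPM with ZJU-37, with replicate 3 highest and replicate 2 lowest in both groups. Egfr, Insr and Met were also highest in replicate 3 of both groups, and Fgfr3 and Erbb3 were also lowest in replicate 2. None of these receptors kept the whole order of the astrocyte sum with ZJU-37. There Egfr, Insr and Met were lowest in replicate 1 (30.9, 44.7 and 11.46 CPM). Fgfr3 and Erbb3 were highest in that library (68.8 and 67.7 CPM). Slc1a3 (714 and 704 CPM as group means with DMSO and ZJU-37) and Fabp7 (465 and 625 CPM) were the largest parts of this sum. Of 11 tested astrocyte markers 1, Fabp7, was called higher and 0 lower. With the block 2 were called higher (Fabp7 and Atp1b2) and 4 lower (Gfap, Aqp4, Gja1 and Acsbg1). Group means were 255 and 152 CPM for Gfap and 176 and 90.4 CPM for Aqp4. The 12 microglia markers summed to between 2548 and 4396 CPM with DMSO and between 1843 and 3866 CPM with ZJU-37, with 0 of 12 called in edgeR and in DESeq2, 0 at an unadjusted p under 0.05, and 5 lower with the block. The part of either cell type in the receptor values was not tested. Neuron, fibroblast and mural, and endothelial markers summed to at most 1128, 149.8 and 19.5 CPM in any library, with 0 called in edgeR. At an unadjusted p under 0.05 there were 2 neuron markers and 0 of the others, and DESeq2 called 1 neuron marker lower. With the block, edgeR called 4 neuron, 2 fibroblast and mural and 1 endothelial marker lower and 0 higher. Cldn5 and Emcn, which mark endothelium, were at 0 in every library.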

How the data were processed

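RNA-seq of cultured rat OPCs was analysed in 6 libraries, 3 per group. The authors deposited raw counts per gene, made with featureCounts 1.5.0. The submitters' processing notes also name HISAT2 2.0.5 and StringTie 1.3.3b; the genome build is not given in the sources used here. The deposited FPKM values divide those counts by gene length, which the authors' table gives in bases, and by a library total. Columns of the authors' own comparison were not used. Counts were filtered with filterByExpr, scaled by TMM and tested in R 4.3.3 by the robust quasi-likelihood functions of edgeR 4.0.16 (glmQLFit, glmQLFTest) with Benjamini-Hochberg adjustment over 14670 genes. Standard errors and 95% intervals come from the F statistic. Shares of FPKM were compared by exact permutation tests.

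The members and the gene lists were chosen with earlier results of these data known. Of 274 list entries, 264 were found by name. Named genes are the 10 members and, per list, the called genes with the largest fold changes, at most 4. Hgf, Igf1, Fgf2, Fgf9, Igf2r, Irs1, Irs2, Frs2, Frs3, Dusp7, Ror2, Fgfr4, Mst1r and Insrr were named after their values were seen. So were the markers Cspg4, Sox10, Ptprz1, Olig1, Olig2, Slc1a3, Atp1b2, Gfap, Aqp4, Gja1, Acsbg1, Cldn5 and Emcn. For each called member, the 3 genes of at least 10 CPM with the nearest profile are also given. Some genes that these rules name are not reported here. Same-numbered libraries correlated in their deviations from the group means over genes (r = 0.39, 0.31 and 0.33), and differently numbered ones had r between -0.27 and -0.01, so the replicate numbers of the labels were taken to pair the libraries. No library was treated as a duplicate, since the counts of any pair differed by a chi-square of 11.9 or more per degree of freedom. The alternatives were DESeq2 1.42.0, limma 3.58.1 (voom, and log2(FPKM + 1) or log2(FPKM + 0.1)), other scalings and filters, the block and leaving out each library. On simulated counts for the 2-group comparison, with 14544 genes tested, the fit recovered 62% of 100 genes changed by 1 on the log2 scale and 11% of 100 changed by 0.5, with 6.41% false calls. The fit with the block recovered 58% and 7%, with 15.6% false calls, on the same simulated counts, which were drawn without any pairing. The calls of Fgfr3, Erbb3, Erbb4 and Met rest on that fit alone. A change of the size fitted for most receptors would thus often be missed on such simulated counts. The simulation changed 100 genes of each size, whereas 2201 genes were called in the data, so recovery in the data can differ.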

Additional observations from a re-analysis of the deposited data

How the results depend on the processing

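Of 160 refitted log2 fold changes of the 10 receptors, 148 kept their direction and their side of the threshold. Fgfr1 was called higher in every alternative run, with log2 fold changes from 0.34 to 0.40. Fgfr2 was called lower except when any 1 ZJU-37 library was left out and at the stricter threshold. With the replicate block 3 receptors were called higher (Fgfr1, Erbb3 and Met) and 3 lower (Fgfr2, Fgfr3 and Erbb4), and 4705 genes in all instead of 2201. The block changed no other receptor's call. At an adjusted p under 0.01 the counts were 1 receptor higher, 0 lower and 1053 genes. With 1 library left out, 1306 to 1927 genes, 1 receptor higher and 0 to 1 receptor lower were called. Directions turned in such fits for uncalled receptors: Egfr ran from -0.0137 to 0.28, Erbb2 from -0.12 to 0.06 (0.0605 without ZJU-37 replicate 1) and Insr from -0.0729 to 0.0143 (0.0014 without DMSO replicate 3, 0.0128 and 0.0143 without ZJU-37 replicates 1 and 2). Single libraries also moved uncalled receptors by over 1.5 times without turning them. Erbb3 ran from 0.06 (without DMSO replicate 2) to 0.35 (without ZJU-37 replicate 2). Erbb4 ran from -0.67 (without ZJU-37 replicate 1) to -0.20 (without DMSO replicate 1). Fgfr3 ran from -0.41 (without DMSO replicate 2) to -0.13 (without ZJU-37 replicate 2). Met ran from 0.37 (without ZJU-37 replicate 3) to 0.78 (without ZJU-37 replicate 1). Igf1r ran from -0.0752 (without DMSO replicate 2) to -0.0033 (without ZJU-37 replicate 3). Shares also turned for Egfr (-0.0847 to 6.40 percentage points), Erbb2 (-0.65 to 0.29) and Igf1r (-1.31 to 1.13). Without turning, the share difference ran from 2.31 to 5.74 percentage points for Erbb3. It ran from -9.01 to -4.11 for Erbb4 and from -5.49 to -2.67 for Fgfr3. The causes were not tested. Other scalings and filters, DESeq2, limma-voom and limma on FPKM called Fgfr1 higher and Fgfr2 lower and no other receptor. Depth limits Erbb2 and Met most, with 90 to 168 and 132 to 479 counts per library.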

Other observations

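The genes whose centred log2 CPM over the 6 libraries lay nearest to that of Fgfr1, compared over the 10301 genes that averaged 10 CPM or more, were Fkbp1a, Raly and Ddx39a. Their root mean square differences from Fgfr1 were 0.017, 0.027 and 0.028 on the log2 scale, and their log2 fold changes were 0.33, 0.37 and 0.35. Fkbp1a encodes an immunophilin, and Raly and Ddx39a encode RNA-binding proteins of mRNA processing and export. The nearest to Fgfr2 were Svip and Bnip3, with differences of 0.073 and 0.075 and log2 fold changes of -0.75 and -0.73. Bnip3 encodes a mitochondrial protein of autophagy and cell death. With 6 libraries such likeness is a description of these libraries.

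Among the 8 receptors with a RefSeq promoter entry in GRCr8, the 250 bases before the start held at least 1 GC box (GGGCGG on either strand) for Fgfr2, Fgfr3, Egfr, Erbb2, Erbb4 and Igf1r and none for Insr and Met. The letters GTAAACA, searched on both strands as a FoxO motif, were in the Insr window and in 3.21% of all 33469 entries. The Met window had a GC content of 42.0% and 3 CpG sites, and the other 7 windows had at least 63.6% and 11 CpG sites. A match of letters is a description of the sequence.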
